A study of Mus musculus with 12 samples.

Results

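Levels of 10 genes of bone formation and of the bone morphogenetic protein (BMP) response were followed across 12 libraries of mouse embryonic fibroblasts. They were taken by name: the osteoblast factors Runx2 and Sp7, the osteoblast enzyme Alpl, the homeobox factors Msx1, Msx2 and Dlx5, the ligand Bmp4, its inhibitor Grem1, and the Id genes Id1 and Id3. All 10 matched 1 gene identifier each, of 37991 in the count tables. Of the 12 libraries, 3 came from wild type embryos (WT) and 3 from embryos that lack Ing1 (Ing1 KO). The labels give 3 more as Gadd45a deficient (Gadd45a KO) and the last 3 as the Gadd45a-/-;Ing1-/- double mutant (DKO). Per the labels, mice deficient in each gene were crossed, and no tissue-specific or induced deletion is named. All 4 groups were primary fibroblasts of male C57BL/6N embryos of stage E15.5, undifferentiated, untreated and harvested at passage 4 and 80% confluency. The labels do not tell if replicates were grown from different embryos, so p-values measure the spread between libraries.

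BMPs are secreted ligands that bind paired surface receptors and switch on Smad transcription factors, which in turn raise Id and Msx genes in many cells. Secreted inhibitors such as gremlin, the product of Grem1, bind BMPs outside the cell and keep them from their receptors. Embryonic fibroblasts are mixed mesenchymal cells. Some of them can become osteoblasts under BMP, a course that needs Runx2 and then Sp7, with alkaline phosphatase (Alpl) as an early enzyme of mineralisation.

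Gene counts per library ran from 31493168 to 42852059. Levels are CPM, that is counts scaled to a common library size. Calls are made at a Benjamini-Hochberg adjusted p under 0.05 in the edgeR fit of all genes. Ing1 stood at 52.3 ± 2.0 CPM in WT and 1.22 ± 0.2 CPM in Ing1 KO (SD, n = 3 each). It stood at 52.2 ± 2.4 CPM in the libraries labelled Gadd45a KO and 1.12 ± 0.19 CPM in those labelled DKO. Gadd45a went against its label: 21.1 ± 0.2 CPM in WT and 18.4 ± 1.9 CPM in Ing1 KO, but 100 ± 22 CPM and 126 ± 6.3 CPM in the libraries labelled Gadd45a KO and DKO. Counts per gene do not show which part of a transcript was read, so every direction below that involves these groups rests on their labels. The 10 fibroblast markers summed to between 58808 and 72038 CPM in every library. The sum does not show single markers: 3 were called higher and 4 lower in Ing1 KO against WT, beside 12.1% and 11.4% of all genes. In DKO against WT 2 of them were called lower, beside 10.3% of all genes. The 12 macrophage markers summed to between 2085 and 2602 CPM in the DKO libraries and to between 128 and 572 CPM in the others. Markers of epithelium (3.82 to 9.12 CPM over 7 genes), endothelium (3.72 to 6.88 CPM over 6) and fat cells (2.53 to 10.3 CPM over 5) were low in every library.

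Of the 10 genes, 9 passed the filter on low counts, and their levels ranged widely. Per kilobase of exon, Grem1 was the most abundant in WT at 69.1 ± 18 CPM per kb (SD, n = 3), followed by Id3 at 51.3 ± 7.1 CPM per kb. Id1 stood at 9.51 CPM per kb, Bmp4 at 3.47 and Runx2 at 2.48. Msx2 at 0.333 CPM per kb and Sp7 at 0.276 were lower, and Msx1, Alpl and Dlx5 stood under 0.1 CPM per kb. The inhibitor and both Id genes were thus read more per length than the ligand or any osteoblast gene among the 10. The group mean was highest in Ing1 KO for 8 of the 10 genes, beside 26.6% of the 15098 genes tested, with Sp7 highest in Gadd45a KO and Msx1 in DKO. Of the 8, Id1 had a mean of 12.0 CPM in both Ing1 KO and Gadd45a KO, Id3 had means of 113 and 112 CPM there, and Alpl was set by 1 library. It was lowest in DKO for 5 of them, beside 28.2% of all genes: Sp7, Msx2, Bmp4, Grem1 and Id1.

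**Figure D1:**
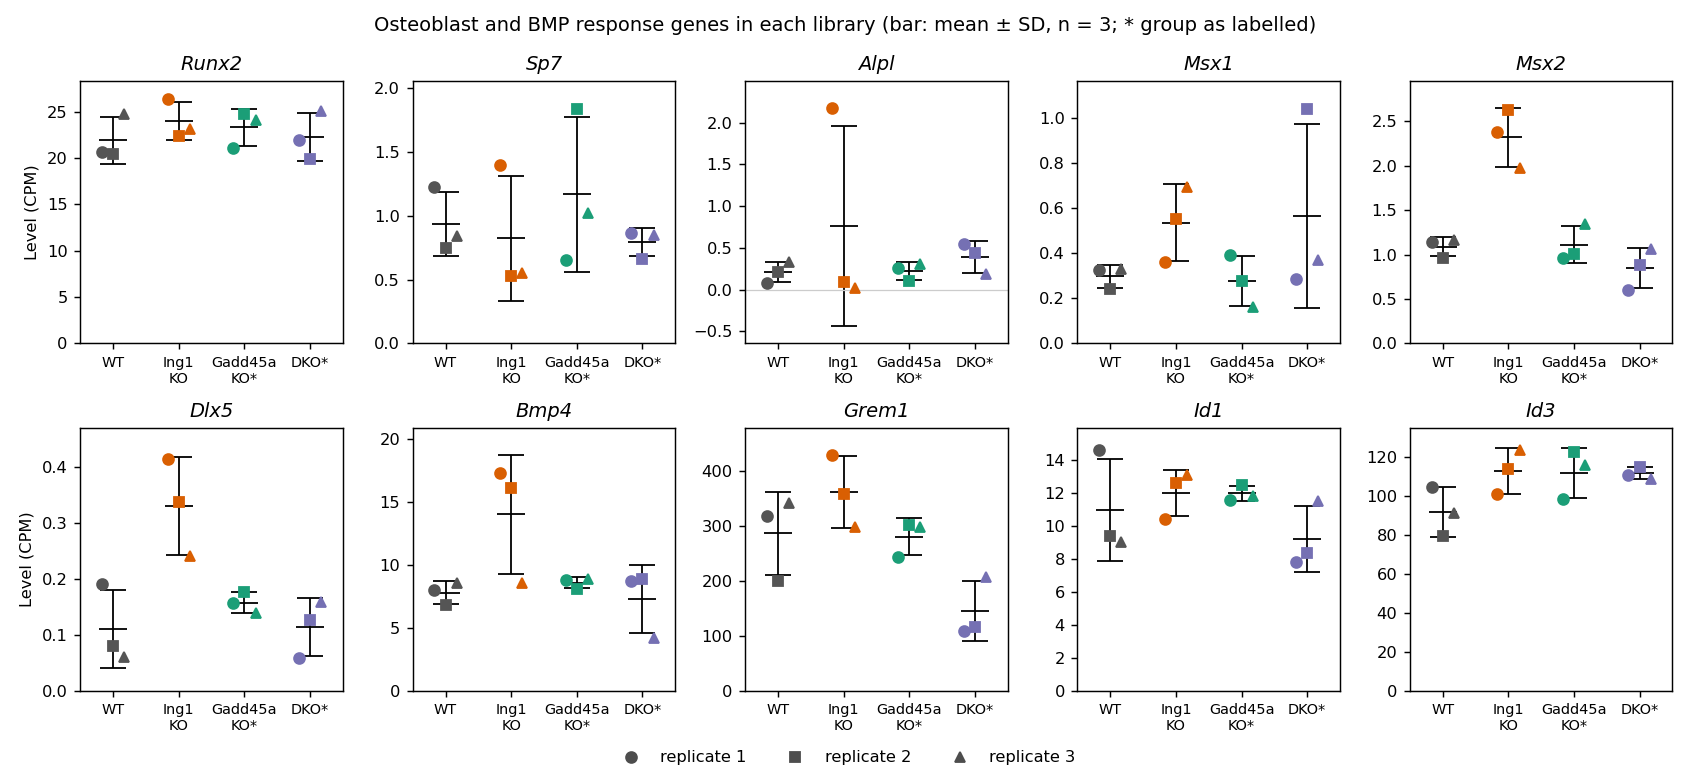
Level of each of the 10 genes in every library, in CPM on a linear axis that includes 0, by group; symbols are replicates 1 to 3, and bars are the mean ± SD of 3 libraries. Msx2 and Dlx5 have all 3 Ing1 KO libraries above the other 9, Grem1 has its lowest levels in DKO replicates 1 and 2, and Alpl stands out in Ing1 KO replicate 1.

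In Ing1 KO against WT, 1 of the 9 tested genes was called higher (Msx2) and none lower. In the same comparison 12.1% of the 15098 genes tested were called higher and 11.4% lower. Their median log2 fold change was 0.34, beside -0.003 over all genes tested. In Gadd45a KO against WT none of the 9 was called by edgeR, where 0.00662% of all genes was called in either direction. DESeq2 called none either, but it gave no adjusted p for Sp7, Alpl, Msx1 and Msx2 there. It could thus not have called these genes. At an unadjusted p under 0.05 edgeR gave 1 of the 9 (Id3), beside 8.82% of all genes. In DKO against WT 1 was called lower (Grem1) and none higher, where 10.3% of all genes were called lower and 15.6% higher.

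The DKO libraries were also set against each single knockout. Against Gadd45a KO, 1 gene was called lower (Grem1) and none higher, where 10.6% of all genes were called lower and 15.8% higher. Against Ing1 KO, 3 were called lower (Msx2, Bmp4 and Grem1) and none higher, where 9.88% of all genes were called lower and 14.9% higher. The interaction is the DKO difference from WT less the differences of both single knockouts, on the log2 scale. It was called for 1 gene, Msx2, as negative, where 7.40% of all genes were called negative and 10.4% positive. Except for the 3 genes lower in DKO than in Ing1 KO, these counts are near what the shares over all genes give for 9 genes. Comparisons with a group in common share its libraries.

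**Figure D2:**
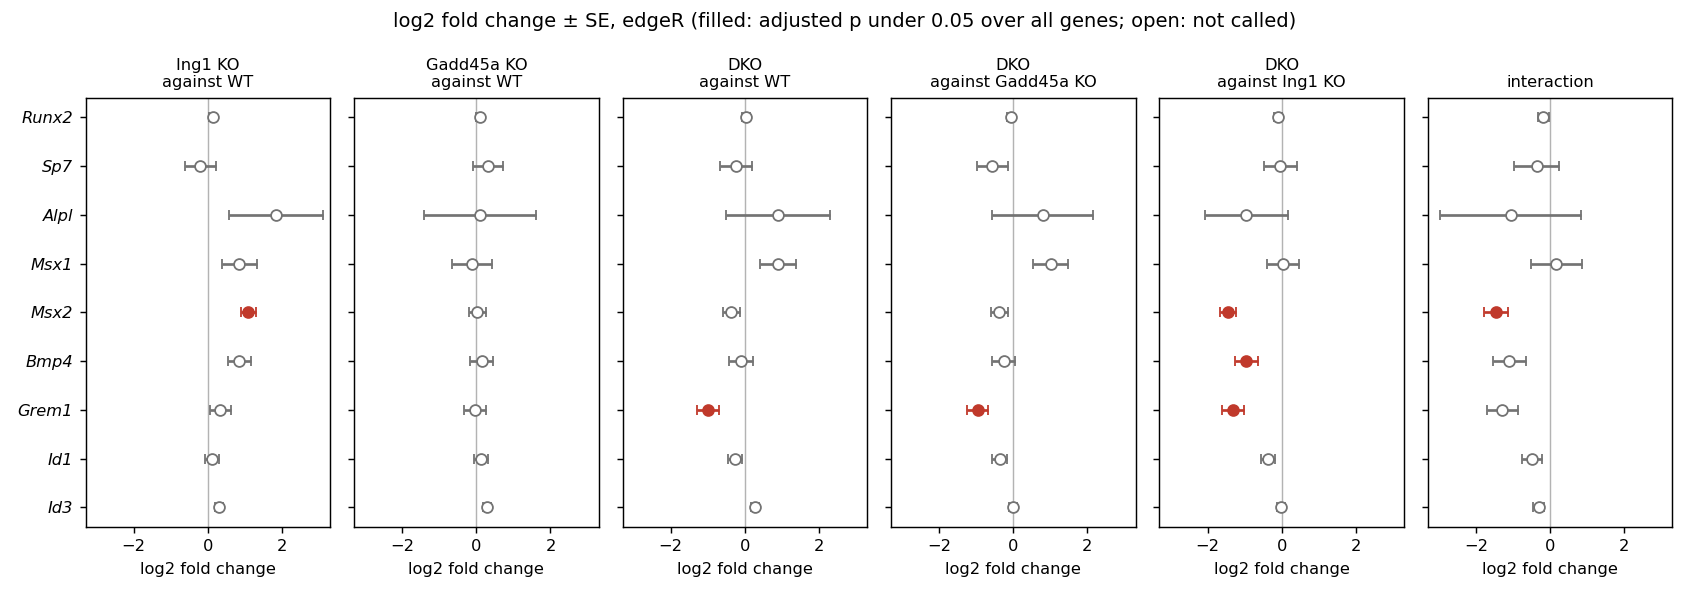
Fitted log2 fold change of the 9 tested genes in the 5 comparisons between groups and in the interaction; points are edgeR estimates, bars their SE, and filled points are called at an adjusted p under 0.05. The filled points are Msx2 in 3 panels, Grem1 in 3 and Bmp4 in 1.

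Runx2, the transcription factor that commits mesenchymal cells to bone, had group means between 21.9 and 24.0 CPM. It stood at 20.6, 20.4 and 24.8 CPM in WT and at 26.4, 22.4 and 23.1 CPM in Ing1 KO. It stood at 21.1, 24.8 and 24.1 CPM in Gadd45a KO and at 21.9, 19.9 and 25.1 CPM in DKO. All groups overlapped, and the highest library was 1.33-fold above the lowest, the narrowest range of the 10 genes. The largest difference between groups was 0.13 ± 0.1 log2 in Ing1 KO against WT (SE; edgeR adjusted p = 0.403). Runx2 shares 519 bases of exon with the antisense gene Runx2os1 in the annotation used here, and the kit does not mark strand, so reads of that stretch cannot be told apart.

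Sp7, also known as osterix and placed after Runx2 in the bone course, was sparse. Its counts were 45, 28 and 28 in WT and 54, 22 and 23 in Ing1 KO. They were 25, 73 and 44 in Gadd45a KO and 30, 21 and 32 in DKO. The 4 groups overlapped throughout, and the spread inside Gadd45a KO, from 0.651 to 1.84 CPM, held the levels of all but 2 of the other libraries. No difference was called, and the largest was -0.56 ± 0.42 log2 in DKO against Gadd45a KO (SE; edgeR adjusted p = 0.368).

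Alpl, which encodes the tissue-nonspecific alkaline phosphatase of bone, had at most 19 counts in every library but 1. Its counts were 3, 8 and 11 in WT, 10, 4 and 13 in Gadd45a KO, and 19, 14 and 7 in DKO. In Ing1 KO they were 84 in replicate 1 and 4 and 1 in the other 2. The top library, at 2.17 CPM, was 90.5-fold above the lowest, at 0.024 CPM, and both carried the same genotype label. The Ing1 KO difference from WT, 1.84 ± 1.26 log2 (SE; edgeR adjusted p = 0.328), became -1.72 (adjusted p = 0.168) without that library. The DKO difference from Ing1 KO likewise went from -0.95 ± 1.13 (adjusted p = 0.596) to 2.62 (adjusted p = 0.0262), so for Alpl this 1 library decided the direction.

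Some other genes of the mineralising osteoblast, picked after their values were seen, were also highest in that library, and others were not. Beside Ibsp and Spp1, those highest in Ing1 KO replicate 1 were Dmp1 (0.569 CPM, on 22 counts), Tnfsf11 (5.92 CPM) and Enpp1 (42.9 CPM). Ibsp, the gene of bone sialoprotein, had 1251 counts (32.3 CPM) in Ing1 KO replicate 1 and 0 in the other 2 Ing1 KO libraries. It had 203 counts (5.84 CPM) in DKO replicate 1, 2 and 1 in the other DKO libraries, 0, 0 and 3 in WT, and 0 in all of Gadd45a KO. Both libraries with Ibsp reads in number were the highest in Alpl as well. Spp1, the gene of osteopontin, which macrophages also make, stood at 1412, 767 and 481 CPM in Ing1 KO, above all 3 WT libraries at 282, 221 and 400.2 CPM. It was 679.9, 541 and 648 CPM in DKO and 127, 372 and 278 CPM in Gadd45a KO. Phex, a regulator of phosphate, was highest in Gadd45a KO replicate 1, at 2.55 CPM against 1.84 CPM in Ing1 KO replicate 1. Phospho1, a phosphatase gene of mineralisation, was highest in Ing1 KO replicate 2, at 0.313 CPM against 0.284 CPM in replicate 1. Pth1r, the parathyroid hormone receptor gene, stood at 30.0 CPM in Ing1 KO replicate 1, between the 28.2 and 31.3 CPM of WT libraries. The late marker Bglap, which encodes osteocalcin, had 1 count in each of 2 libraries and 0 in the others. Each count of 0 or near 0 says only that the gene was not detectable at this depth.

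**Figure D3:**
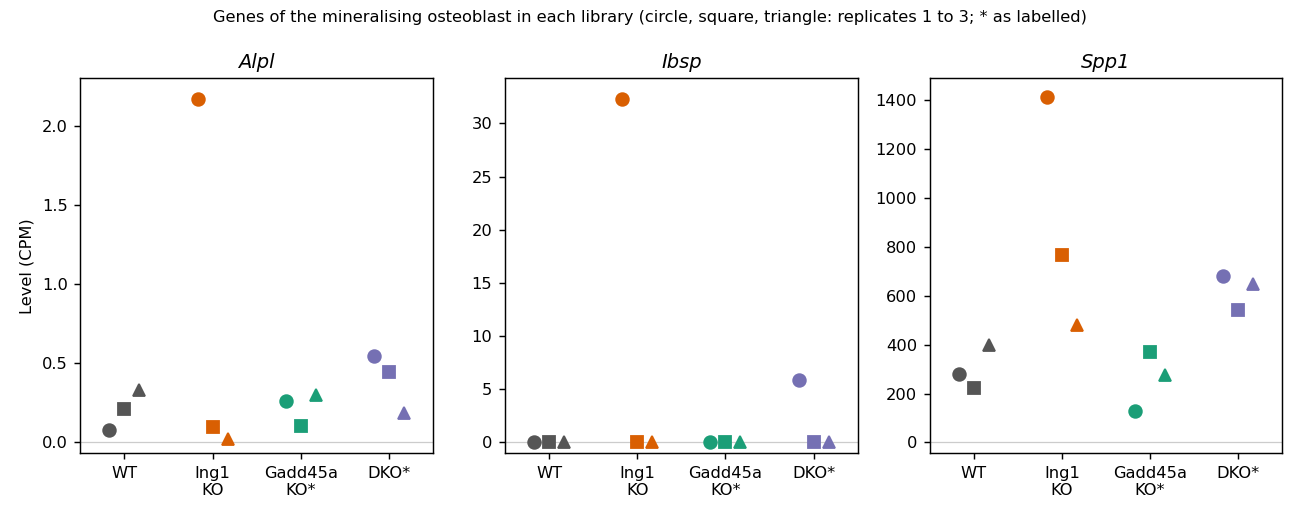
Level of Alpl, Ibsp and Spp1 in every library, in CPM on linear axes, by group; circle, square and triangle are replicates 1 to 3. Ing1 KO replicate 1 is the highest library in all 3 panels, at 2.17, 32.3 and 1412 CPM, and DKO replicate 1 is the second highest for Alpl and Ibsp.

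Msx2, a homeobox repressor and classical BMP target of the skull and limb, gave the clearest difference. It stood at 1.14, 0.963 and 1.17 CPM in WT and at 2.38, 2.63 and 1.97 CPM in Ing1 KO. It stood at 0.963, 1.01 and 1.34 CPM in Gadd45a KO and at 0.604, 0.885 and 1.06 CPM in DKO. All 3 Ing1 KO libraries lay above all 9 others, which overlapped among themselves. Msx2 rose 2.12-fold in Ing1 KO over WT, by 1.09 ± 0.21 log2 (SE; edgeR adjusted p = 0.00339). It was 2.72-fold lower in DKO than in Ing1 KO, by -1.44 ± 0.22 log2 (edgeR adjusted p = 0.000793).

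The interaction of Msx2 was -1.47 ± 0.32 log2 (SE; edgeR adjusted p = 0.00978): loss of Ing1 went with a higher level in the WT background and not in the background labelled Gadd45a KO. There, DKO stood -0.38 ± 0.23 log2 from Gadd45a KO (adjusted p = 0.262). Both calls and the interaction were made again with each library left out in turn. Their adjusted p reached at most 0.0219 for Ing1 KO against WT, 0.00516 for DKO against Ing1 KO and 0.0316 for the interaction. In bulk RNA, fewer cells of a type and less RNA per cell cannot be told apart. The 10 chondrocyte markers summed to 96.5, 90.2 and 44.5 CPM in Ing1 KO against 35.9 to 48.0 CPM in all other libraries, and none was at 0 in every library of a group. Of the 9 tested in Ing1 KO against WT, 2 were called higher, 1 lower and 6 not, so the list was mixed. Over all genes, 12.1% were called higher and 11.4% lower. The 2 higher were Acan and Col2a1. Acan, of the cartilage proteoglycan aggrecan, rose by 3.62 ± 0.73 log2 (edgeR adjusted p = 0.00786). Col2a1, of type II collagen, rose by 2.48 ± 0.63 log2 (edgeR adjusted p = 0.0223). The 7 skeletal muscle markers summed to between 82.8 and 132 CPM in Ing1 KO, 62.6 and 99.9 CPM in DKO, and 48.2 and 65.9 CPM in WT and Gadd45a KO. Of the 3 muscle markers tested in Ing1 KO against WT, 1 was called higher (Acta1) and 1 lower (Myh3). Pax7 was at 0 in every library of each group, and Myf5 in every library of Ing1 KO, Gadd45a KO and DKO. Myod1 was at 0 in every library of Ing1 KO and DKO, and Myog in every library of DKO. The part of these cells in the result was not tested.

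Msx1, the close relative of Msx2, was sparser. Its counts were 12, 9 and 11 in WT and 14, 23 and 29 in Ing1 KO, 15, 11 and 7 in Gadd45a KO, and 10, 33 and 14 in DKO. The Ing1 KO libraries lay above the WT ones without overlap, and the DKO mean was set by replicate 2. The difference of 0.85 ± 0.48 log2 in Ing1 KO against WT was not called (SE; edgeR adjusted p = 0.222), nor was 1.01 ± 0.48 in DKO against Gadd45a KO (adjusted p = 0.143).

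Dlx5, a homeobox activator of the osteoblast and limb, held only 83 counts in all and did not pass the filter on low counts. It had 7, 3 and 2 counts in WT, 16, 14 and 10 in Ing1 KO, 6, 7 and 6 in Gadd45a KO, and 2, 4 and 6 in DKO. As with Msx2, all 3 Ing1 KO libraries lay above all 9 others. With no filter the difference in Ing1 KO against WT was 1.54 ± 0.48 log2 (SE; edgeR adjusted p = 0.031), and that in DKO against Ing1 KO was -1.51 ± 0.48 (adjusted p = 0.0337). Only 2 libraries, both Ing1 KO, reached the 0.263 CPM that the filter asks for. Where Dlx5 entered a fit that left out 1 library, it did so through that group, so those fits give no support. Their adjusted p for Ing1 KO against WT was 0.0114, 0.0984 and 0.0861 without WT replicate 1, 2 or 3, and 0.0196 without Ing1 KO replicate 3. Of the other 5 Dlx genes 2 were tested. Dlx2 rose in Ing1 KO, from 0.924 ± 0.41 to 1.89 ± 0.14 CPM (SD, n = 3), by 1.04 ± 0.27 log2 (edgeR adjusted p = 0.0138).

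Bmp4 is the ligand of the set and Grem1 its secreted inhibitor. As the data set these genes side by side, the 250 bases before the start of each in RefSeq (GRCm38.p6, minus strand for both) are shown, at chr14:46390670-46390919 for Bmp4 and chr2:113758649-113758898 for Grem1. Capitals mark matches on either strand to the GC-rich BMP Smad element GGCGCC or the Smad box CAGAC.
Bmp4: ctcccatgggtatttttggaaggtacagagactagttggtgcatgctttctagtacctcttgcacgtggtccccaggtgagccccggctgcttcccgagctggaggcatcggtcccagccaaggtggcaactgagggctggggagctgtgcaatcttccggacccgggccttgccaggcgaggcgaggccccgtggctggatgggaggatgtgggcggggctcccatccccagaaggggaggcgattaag
Grem1: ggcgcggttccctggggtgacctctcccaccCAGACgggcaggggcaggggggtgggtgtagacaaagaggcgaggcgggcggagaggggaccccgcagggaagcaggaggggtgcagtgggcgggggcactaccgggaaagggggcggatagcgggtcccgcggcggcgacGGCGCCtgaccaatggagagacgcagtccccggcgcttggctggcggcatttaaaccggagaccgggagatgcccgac
Of the 32841 promoter windows of this length in the table, 9.6% hold GGCGCC and 42.2% hold CAGAC. Grem1 holds 1 of each and Bmp4 neither. The Runx site TGTGGT, in 14.0% of windows, and the Msx homeodomain site TAATTG, in 7.2%, match in neither. GC content is 72.0% with 24 CpGs for Grem1 and 63.2% with 11 for Bmp4, beside medians of 52.4% and 6 over all windows. A match is a run of letters and not a measured site, and 7 of the 10 genes had a window in the table.

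Bmp4 stood at 8.0, 6.79 and 8.57 CPM in WT and at 8.8, 8.05 and 8.88 CPM in Gadd45a KO. In Ing1 KO it was 17.3 and 16.1 CPM in replicates 1 and 2 but 8.56 CPM in replicate 3. In DKO it was 8.72 and 8.88 CPM in replicates 1 and 2 but 4.14 CPM in replicate 3. In both groups that lack Ing1, replicate 3 was thus the lowest, and the Ing1 KO libraries overlapped WT through it. Bmp4 fell by 0.95 ± 0.31 log2 in DKO against Ing1 KO, 1.94-fold (SE; edgeR adjusted p = 0.0484).

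That call for Bmp4 is at the threshold: of 6 fits that left out 1 library of the 2 groups, 1 kept it, the one without Ing1 KO replicate 3 (edgeR adjusted p = 0.00795), and the others gave up to 0.15. It was also lost with no filter on low counts (adjusted p = 0.0954) and in a fit of the 2 groups alone (adjusted p = 0.146). The Ing1 KO difference from WT, 0.84 ± 0.31 log2, was not called by edgeR (adjusted p = 0.0746), but was by DESeq2 (adjusted p = 0.00905). Without Ing1 KO replicate 3 it was 1.1 (edgeR adjusted p = 0.0131). The 2 Ing1 KO libraries high in Bmp4 were the 2 high in chondrocyte markers, whose part in the result was not tested. Bmp4 shares 89 bases of exon with Gm15217 on the other strand, which cannot be told apart here.

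Grem1 had the highest mean CPM of the 10 genes, though Id3 was above it in DKO replicate 1, and its own mean was lowest in DKO. It stood at 318, 200.3 and 342 CPM in WT and at 243, 303 and 298 CPM in Gadd45a KO. It stood at 429, 359 and 298 CPM in Ing1 KO and at 109, 116 and 208 CPM in DKO. The DKO libraries lay below all of Ing1 KO and Gadd45a KO, while DKO replicate 3 overlapped WT replicate 2. Grem1 was 2.5-fold lower in DKO than in Ing1 KO, by -1.32 ± 0.29 log2 (SE; edgeR adjusted p = 0.0113). It fell by 0.99 ± 0.29 log2 against WT (adjusted p = 0.0349) and by 0.96 ± 0.29 against Gadd45a KO (adjusted p = 0.0387).

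Of these Grem1 calls, that against Ing1 KO was made in all 6 fits that left out 1 library (edgeR adjusted p at most 0.0459). That against WT was made in 2 of 6 (adjusted p up to 0.116) and lost without WT replicate 1 or 3 or DKO replicate 1 or 2. That against Gadd45a KO was made in 1 of 6, the fit without DKO replicate 3 (adjusted p up to 0.123). Both were lost with no filter (adjusted p = 0.0677 and 0.0727) and in fits of the 2 groups alone (adjusted p = 0.139 and 0.085), and both were made by DESeq2 (adjusted p = 0.00603 and 0.00848). The interaction was -1.29 ± 0.41 log2 and was not called by edgeR (adjusted p = 0.0578), while DESeq2 gave 0.0171. All 12 macrophage markers were called higher in DKO in each of the 3 comparisons where Grem1 was lower; their part in the result was not tested.

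The number of Grem1 reads per Bmp4 read was 39.8, 29.5 and 39.8 in WT and 27.6, 37.6 and 33.5 in Gadd45a KO. It was 24.8, 22.3 and 34.8 in Ing1 KO and 12.6, 13.1 and 50.3 in DKO. DKO replicates 1 and 2 had the lowest ratios of all libraries and DKO replicate 3 the highest, so the ratio of inhibitor to ligand had no common level within that group. These ratios are of reads, not of reads per length, and no test was run on them.

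**Figure D4:**
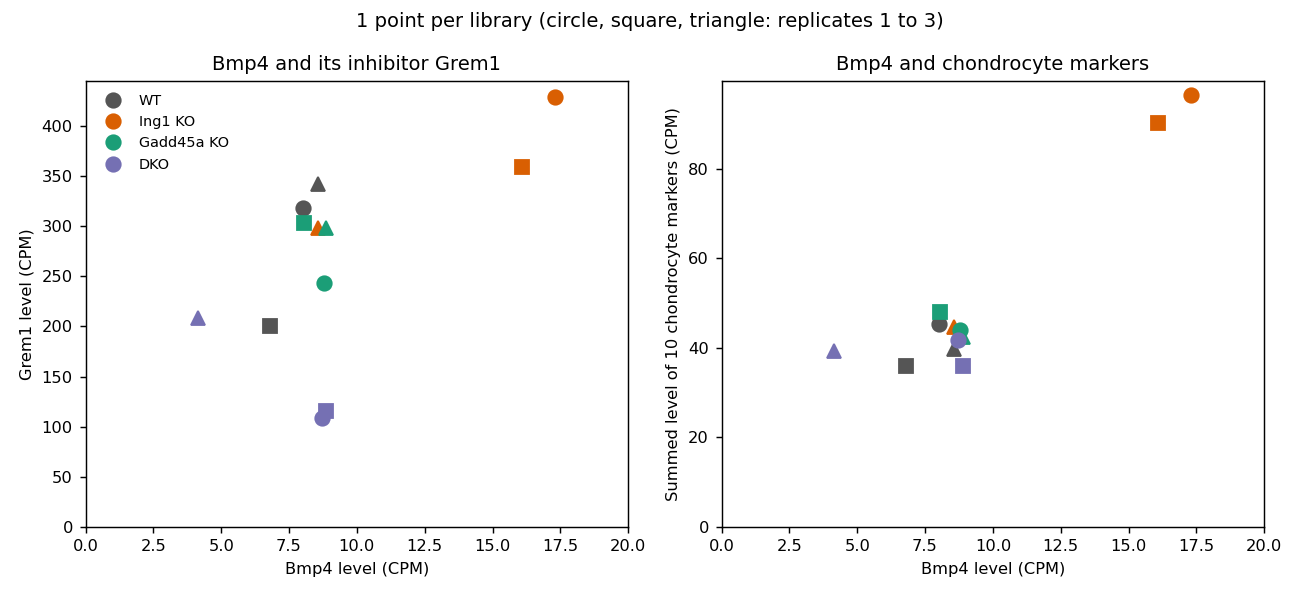
Each point is 1 library, with its Bmp4 level in CPM on the x axis and, on the y axis, its Grem1 level (left) or the summed level of 10 chondrocyte markers (right), both in CPM on linear axes from 0. DKO replicates 1 and 2 sit at 109 and 116 CPM of Grem1 with Bmp4 at 8.72 and 8.88 CPM, and Ing1 KO replicates 1 and 2 stand apart in the right panel at 96.5 and 90.2 CPM.

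Id1 and Id3 encode helix-loop-helix proteins without a DNA-binding region that hold back differentiation factors, and both are direct BMP Smad targets. Id1 stood at 14.6, 9.41 and 9.02 CPM in WT and at 10.4, 12.6 and 13.1 CPM in Ing1 KO. It stood at 11.6, 12.5 and 11.8 CPM in Gadd45a KO and at 7.8, 8.37 and 11.5 CPM in DKO. The DKO libraries lay just below all Gadd45a KO libraries, and WT replicate 1 was the highest of all. No difference was called, with -0.37 ± 0.19 log2 in DKO against Gadd45a KO (SE; edgeR adjusted p = 0.179) and -0.38 ± 0.19 against Ing1 KO (adjusted p = 0.182).

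Id3 had its lowest mean in WT, 91.9 ± 13 CPM, and means of 112 or 113 CPM in the other groups (SD, n = 3 each). It stood at 105, 79.4 and 91.3 CPM in WT and at 101, 114 and 124 CPM in Ing1 KO. It stood at 98.4, 123 and 116 CPM in Gadd45a KO and at 111, 115 and 109 CPM in DKO. WT overlapped both single knockouts but not DKO. The differences from WT were 0.3 ± 0.11 log2 in Ing1 KO, 0.29 ± 0.11 in Gadd45a KO and 0.28 ± 0.11 in DKO, and none was called (SE; edgeR adjusted p = 0.068, 0.525 and 0.0847). DESeq2 called those of Ing1 KO (adjusted p = 0.0206) and DKO (adjusted p = 0.0456) but not that of Gadd45a KO (adjusted p = 0.349). In edgeR the Ing1 KO difference was called without WT replicate 1 (adjusted p = 0.0201) or Ing1 KO replicate 1 (0.0369). The DKO difference was called without WT replicate 1 (0.0269) and in a fit of the 2 groups alone (edgeR adjusted p = 0.0389). All 3 differences share the WT libraries. Id3 reads per Id1 read were 14.3 and 13.7 in DKO replicates 1 and 2 and between 7.17 and 10.1 in the other 10 libraries.

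For the 6 genes with a mean of at least 1 CPM, the 2 genes whose pattern over the 12 libraries was nearest were found among 12438 genes, by the root mean square (RMS) difference of centred log2 CPM. The nearest to Msx2 were Pcp4l1, at 0.195, and Cdsn, at 0.213, where the RMS spread of Msx2 itself was 0.571. The nearest to Bmp4 were Pdgfa, a growth factor gene, at 0.195 and Npr3, a natriuretic peptide receptor gene, at 0.207, with a spread of 0.503. Those nearest to Grem1 were Zic1, a zinc finger factor gene, at 0.228 and Hhipl1 at 0.24, with a spread of 0.593. Id3 had Gadd45g at 0.087 and Tmem132a at 0.094 (spread 0.178), and Id1 had 1110008P14Rik at 0.139 and Crlf2 at 0.154 (spread 0.267). Runx2, with a spread of only 0.13, had Nupl2 and Lrrk2 at 0.085 each. Among the members themselves, Msx2 stood 0.39 from Grem1 and 0.462 from Bmp4. These distances are descriptions over libraries that share their groups.

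Over all genes, 12.1% were called higher in Ing1 KO than in WT, and 15.6% higher and 10.3% lower in DKO than in WT. Of 8 tested ligand genes, 1 was called higher in Ing1 KO than in WT, and 1 higher and 2 lower in DKO than in WT. The gene that rose in both was Bmp1, by 0.17 ± 0.05 and 0.24 ± 0.05 log2 (SE; edgeR adjusted p = 0.0321 and 0.00453). Despite its name Bmp1 encodes a procollagen proteinase and not a Smad ligand. The Ing1 KO call was lost in 4 of 6 fits that left out 1 library, those without WT replicate 2 or 3 or Ing1 KO replicate 1 or 2 (adjusted p up to 0.103). Bmp6, a BMP ligand, stood at 0.876 ± 0.23 CPM in DKO against 1.63 ± 0.22 CPM in Gadd45a KO (SD, n = 3), lower by -0.91 ± 0.23 log2 (edgeR adjusted p = 0.0115), a call lost without DKO replicate 1 (adjusted p = 0.0542). Gdf7, another ligand gene, was the 1 called lower in DKO than in Ing1 KO, beside 9.88% of all genes. It stood at 0.122 ± 0.12 CPM in DKO and 0.63 ± 0.33 CPM in Ing1 KO (SD, n = 3). Gdf7 reached the 0.263 CPM of the filter in 2 Ing1 KO libraries, 1 of WT, 1 of Gadd45a KO and 0 of DKO. Without the Ing1 KO libraries it would not have passed, so its call supports nothing.

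Of 9 receptor and coreceptor genes tested, 1 was higher and 3 were lower in Ing1 KO than in WT, and 3 were lower in DKO than in WT. In DKO, 4 were lower than in Gadd45a KO and 1 was lower than in Ing1 KO. Some of these calls were lost in the 6 fits that left out 1 library. Of those in Ing1 KO against WT, the 1 higher was kept in 3 fits and 1 lower in 2 (edgeR adjusted p up to 0.143 and 0.17). Of the 4 lower than in Gadd45a KO, 1 was kept in 2 fits and 1 in 3 (edgeR adjusted p up to 0.125 and 0.082). Over all genes, 12.1% were called higher and 11.4% lower in Ing1 KO than in WT. In DKO, 10.3%, 10.6% and 9.88% of all genes were called lower than in WT, Gadd45a KO and Ing1 KO. Acvr2a, a type II receptor gene, fell in both groups that lack Ing1, from 138 ± 12 CPM in WT to 88.4 ± 17 CPM in Ing1 KO and 93.2 ± 9.6 CPM in DKO (SD, n = 3). Its log2 differences were -0.64 ± 0.13 and -0.57 ± 0.13 (SE; edgeR adjusted p = 0.00651 and 0.00956). Eng, which encodes the coreceptor endoglin, was lower in DKO than in all 3 other groups, by -0.5 ± 0.13 log2 against WT (adjusted p = 0.0141). That call was lost without DKO replicate 2 or 3 (adjusted p up to 0.0541). Bmpr1a, a type I receptor gene, fell by 0.21 ± 0.05 log2 in Ing1 KO (edgeR adjusted p = 0.00653).

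Of the 4 BMP Smad genes, Smad5 was the one called lower in Ing1 KO and in DKO against WT, by -0.21 ± 0.04 and -0.25 ± 0.04 log2 (SE; edgeR adjusted p = 0.00387 and 0.00119). In DKO against Gadd45a KO, Smad5 and Smad9 were called lower and Smad1 higher, the last in none of the 6 fits that left out 1 library (edgeR adjusted p 0.0508 to 0.185). Over all genes, 11.4% were called lower in Ing1 KO than in WT, and 10.3% lower in DKO than in WT. DKO against Gadd45a KO gave 10.6% lower and 15.8% higher, and DKO against Ing1 KO gave 14.9% higher. Smad1 was also called higher in DKO than in Ing1 KO, by 0.2 ± 0.05 log2 (edgeR adjusted p = 0.0155), a call lost without Ing1 KO replicate 2 or DKO replicate 3 (adjusted p up to 0.0751).

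Of 9 other inhibitor genes tested, 1 was higher and 3 were lower in Ing1 KO than in WT, and 3 were lower in DKO than in WT. Over all genes, 12.1% were called higher and 11.4% lower in Ing1 KO, and 10.3% lower in DKO. Twsg1, of twisted gastrulation, fell by 0.22 ± 0.05 log2 in Ing1 KO and by 0.24 ± 0.05 in DKO (SE; edgeR adjusted p = 0.00507 and 0.0022). Fstl1, a secreted follistatin-like gene at 4652 ± 140 CPM in WT (SD, n = 3), fell by 0.31 ± 0.06 and 0.24 ± 0.06 log2 (adjusted p = 0.00247 and 0.00807). Nog, of the BMP inhibitor noggin and named after its values were seen, fell by 1.11 ± 0.3 and 1.3 ± 0.31 log2 (edgeR adjusted p = 0.0165 and 0.00733). Its Ing1 KO call was lost without WT replicate 1 or Ing1 KO replicate 2 (adjusted p up to 0.0795). Noggin thus fell in both groups that lack Ing1, whereas the inhibitor gene Grem1 fell in DKO and stood 0.34 ± 0.29 log2 from WT in Ing1 KO (edgeR adjusted p = 0.441). Nbl1, of a secreted BMP inhibitor of the same family as gremlin, was lower in DKO than in Ing1 KO, by -0.47 ± 0.08 log2 (edgeR adjusted p = 0.00125). Of the 9, 2 were lower in that comparison, beside 9.88% of all genes.

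Of 8 other BMP target genes, 2 were higher and 1 was lower in Ing1 KO than in WT, and 2 were higher in DKO than in each of the 3 other groups. The 1 lower in Ing1 KO was Id2, called in 1 of 6 fits that left out 1 library (edgeR adjusted p up to 0.139). Of the 2 higher in Ing1 KO, 1 was called in 3 of these 6 fits (edgeR adjusted p up to 0.0886). Over all genes, 12.1% were called higher and 11.4% lower in Ing1 KO than in WT. In DKO, 15.6%, 15.8% and 14.9% of all genes were called higher than in WT, Gadd45a KO and Ing1 KO. Id2, another Id gene, stood at 30.1 ± 1.2 CPM in WT, 25.1 ± 1.8 CPM in Ing1 KO, 30.2 ± 4.1 CPM in Gadd45a KO and 45.8 ± 1.1 CPM in DKO (SD, n = 3 each). It rose by 0.6 ± 0.08 log2 in DKO against WT (SE; edgeR adjusted p = 0.000266) and by 0.87 ± 0.08 against Ing1 KO (adjusted p = 5.73e-05). Its interaction was 0.86 ± 0.12 (adjusted p = 0.00125). Bambi, a decoy receptor gene, rose in DKO by 0.59 ± 0.08 log2 against WT (edgeR adjusted p = 0.000256). All 12 macrophage markers were called higher in DKO against WT as well, and their part in the rises of Id2 and Bambi was not tested. In DKO, then, edgeR called Id2 higher and called neither Id1 nor Id3, though the mean of Id1 was lowest there. Hey1, a Notch and BMP target, rose by 0.96 ± 0.22 log2 in Ing1 KO (edgeR adjusted p = 0.00827).

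Of 15 other osteoblast genes tested, 5 were higher and 1 was lower in Ing1 KO than in WT, with a median log2 fold change of 0.28, beside 12.1% and 11.4% of all genes. Of these 6, named after their values were seen, Tnfrsf11b, higher, was lost in 3 of 6 fits that left out 1 library and Cdh11, lower, in 5 of 6 (edgeR adjusted p up to 0.117 and 0.0895). In DKO against Ing1 KO, where 9.88% of all genes were called lower and 14.9% higher, 3 of the 15 were lower and none higher. Among them were Slc20a1, a phosphate transporter, and Ank, a pyrophosphate transporter. Both also rose in Ing1 KO and had a negative interaction, as Msx2 did. Ank stood at 42.6 ± 6.6 CPM in WT, 80.0 ± 19 CPM in Ing1 KO and 39.4 ± 2.7 CPM in DKO (SD, n = 3). It rose by 0.91 ± 0.17 log2 in Ing1 KO (SE; edgeR adjusted p = 0.00443), with an interaction of -1.11 ± 0.24 (adjusted p = 0.0143). In Ing1 KO replicates 1 to 3 it was 92.6, 88.7 and 58.6 CPM where the chondrocyte markers summed to 96.5, 90.2 and 44.5 CPM, whose part was not tested. Slc20a1 rose by 0.45 ± 0.08 log2 in Ing1 KO (edgeR adjusted p = 0.00228). The calls on these 2 genes were made again in all 6 fits, or 12 for the interaction, that left out 1 library. Spp1 was also called in Ing1 KO, by 1.56 ± 0.47 log2 (adjusted p = 0.0441), and in 1 of the 6 fits, the one without Ing1 KO replicate 3 (adjusted p up to 0.146). Of the 55 tested genes of these lists, 0 were called in Gadd45a KO against WT by edgeR (3 at an unadjusted p under 0.05) and 0 by DESeq2. In the DESeq2 count, a gene without an adjusted p stands as not called.

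**Figure D5:**
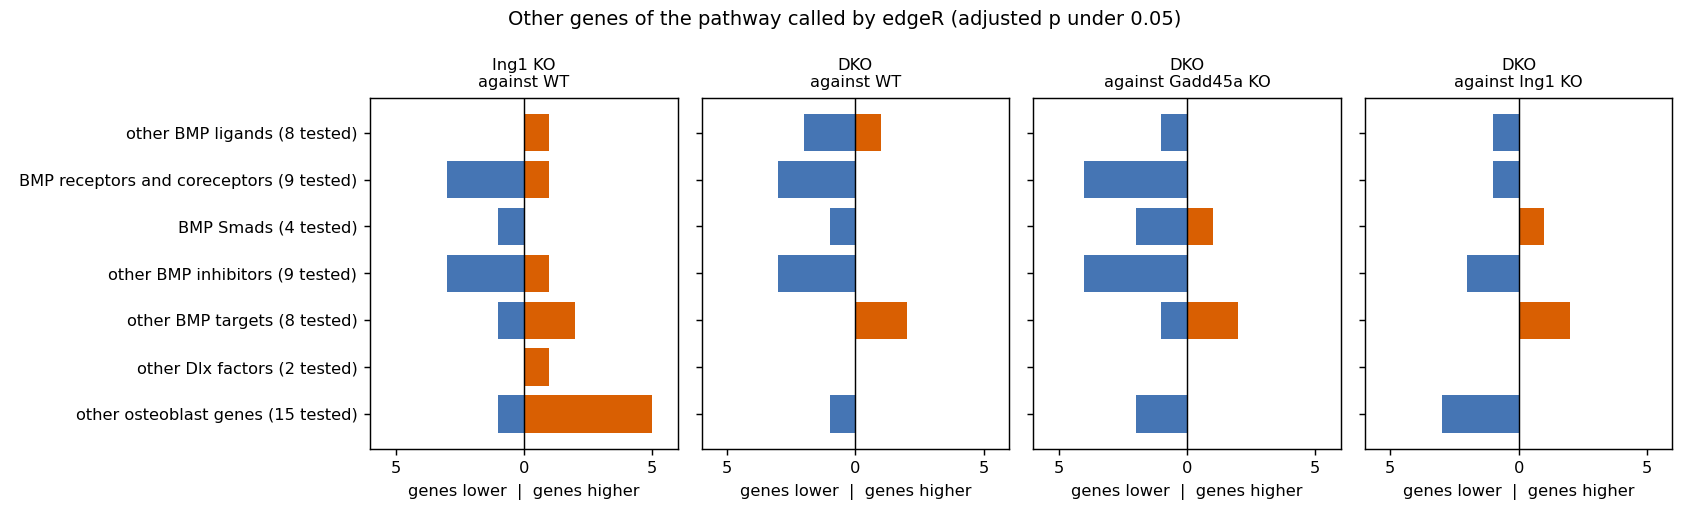
Number of genes of each pathway list called lower (left of 0) or higher (right of 0) by edgeR at an adjusted p under 0.05, in 4 comparisons; the number tested stands beside each list. The longest bar is that of the other osteoblast genes in Ing1 KO against WT, with 5 of 15 called higher, beside 12.1% of all genes.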

How the data were processed

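Polyadenylated RNA of 12 fibroblast libraries was made into libraries with an unstranded kit and, per the labels' protocols, sequenced as single reads of 51 cycles. The authors deposited counts per gene, with a table for each library. The submitters' processing notes list TopHat2 2.0.9, Bowtie2 2.1.0 and HTSeq 0.5.4, and the build mm9 (NCBIM37). Whether HTSeq counted by strand is not stated in these sources. The 5 summary lines, with 23.89% to 24.91% of the reads listed, were left out of totals and tests.

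Symbols, exon lengths and overlaps came from a GENCODE annotation of another build. Counts of 0 to 3 show only the limit of this depth. The members and all gene lists were chosen with earlier results of these data known. Named genes are the 10 members, up to 3 called genes per pathway list with the smallest adjusted p, and the 2 genes nearest in pattern to each member with a mean of at least 1 CPM. Ing1 and Gadd45a check the labels. Genes named outside this rule were chosen after their values were seen. They were Nog, Ibsp, Spp1, Dmp1, Tnfsf11, Enpp1, Bglap, Phex, Phospho1, Pth1r, Tnfrsf11b, Cdh11 and single cell type markers. One result the rule would name is not reported here. Pathway lists covered other ligands, receptors and coreceptors (of which Hjv matched no identifier), Smads, inhibitors, targets, Dlx factors and osteoblast genes. Marker lists covered fibroblasts, macrophages, chondrocytes, skeletal muscle, epithelium, endothelium and fat cells. A script read promoter windows from a RefSeq table, and the 4 motifs were chosen after the windows were seen.

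Groups were compared with edgeR 4.0.16 in R 4.3.3. All 12 libraries entered 1 model with 4 groups, TMM normalisation, the filterByExpr filter, which left 15098 genes, and robust two-sided quasi-likelihood tests (biological coefficient of variation 8.2%, 8 residual degrees of freedom). With 3 libraries a group, exact permutation tests cannot reach a two-sided p under 0.05, so none was run. The test was tried on simulated counts. Same-numbered libraries of WT and Gadd45a KO deviated together from their group means (correlations 0.336, 0.105 and 0.129). Those of Ing1 KO and DKO were also all positive, but smaller (0.046, 0.018 and 0.076). Each other pair of groups held a negative correlation between same-numbered libraries. The labels name no source of a pairing. The alternatives were DESeq2 1.42.0, RLE normalisation, no filter, only the groups compared, a replicate block, and each library left out. Leaving libraries out for the pathway genes was chosen after seeing the data.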

Additional observations from a re-analysis of the deposited data

Results flagged for a closer look

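Msx2 differed between the 2 Gadd45a backgrounds in its response to the loss of Ing1, by a test of the difference itself: the interaction was -1.47 ± 0.32 log2 (SE; edgeR adjusted p = 0.00978). The level was 1.09 ± 0.11 CPM in WT and 2.32 ± 0.33 CPM in Ing1 KO, and 1.11 ± 0.21 CPM in Gadd45a KO and 0.85 ± 0.23 CPM in DKO (SD, n = 3 each). The direction rests on the label of the Gadd45a groups, whose Gadd45a reads go against it.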

How the results depend on the processing

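Without a filter on low counts, edgeR called 2 members in Ing1 KO against WT (with Dlx5), 0 in DKO against WT and 0 in DKO against Gadd45a KO; the cause was not tested. DESeq2 called 3 in Ing1 KO against WT, 2 in DKO against WT and 3 for the interaction. A fit of the 2 groups alone called 0 in DKO against Gadd45a KO, and over all genes 0 in Gadd45a KO against WT, where DESeq2 called 31 genes. RLE normalisation moved no count of calls by over 1.5 times.

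With 1 library left out, the number of members called ran from 1 to 3 in Ing1 KO against WT, 0 to 1 in DKO against WT, 0 to 1 in DKO against Gadd45a KO, 2 to 4 in DKO against Ing1 KO and 1 to 3 for the interaction, with Dlx5 among the members in some of these fits. Over all genes the calls ran from 1858 to 3548 in Ing1 KO against WT, lowest without Ing1 KO replicate 2, and from 1 to 13 in Gadd45a KO against WT, highest without WT replicate 1. They ran from 2249 to 3676 in DKO against Ing1 KO, lowest without Ing1 KO replicate 2, and from 1300 to 3285 for the interaction, lowest without WT replicate 2.

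Fold changes whose sign turned in these fits ran, on the log2 scale, in Ing1 KO against WT from -0.79 to 0.05 for Sp7, -1.72 to 2.42 for Alpl and 0.00 to 0.38 for Id1. They ran in Gadd45a KO against WT from -0.16 to 0.60 for Sp7, -0.28 to 0.57 for Alpl, -0.45 to 0.16 for Msx1, -0.15 to 0.11 for Msx2, -0.23 to 0.12 for Grem1 and -0.01 to 0.38 for Id1. They ran in DKO against WT from -0.08 to 0.12 for Runx2, -0.38 to 0.00 for Sp7, -0.29 to 0.17 for Bmp4 and -0.46 to 0.00 for Id1. They ran in DKO against Gadd45a KO from -0.16 to 0.01 for Runx2, -0.42 to 0.03 for Bmp4 and -0.10 to 0.05 for Id3. They ran in DKO against Ing1 KO from -0.28 to 0.55 for Sp7, -1.52 to 2.62 for Alpl, -0.70 to 0.36 for Msx1 and -0.10 to 0.05 for Id3. They ran in the interaction from -0.64 to 0.24 for Sp7, -1.64 to 2.51 for Alpl and -0.58 to 0.49 for Msx1. None of these turned where the 12-library fit had called a difference. The sign turned in 39 combinations of gene, comparison and left-out library, and under no other alternative.

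Over all groups 4 of 18 same-numbered pairs had a correlation of deviations above 0.1 (-0.177 to 0.336), among them all 3 of WT and Gadd45a KO, and the same number gave the best match in 13 of 36 cases. A replicate block gave 3434, 1, 3824, 3856, 3589 and 2514 calls over all genes in the 5 comparisons and the interaction, in the order above, and 1, 0, 1, 1, 3 and 1 members, and changed no call on a member. Depth limits Dlx5, Alpl, Msx1 and Sp7, with 83 to 425 counts over all libraries.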
